A study of Mus musculus with 4 samples.

Results

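In single-cell RNA sequencing of the mouse ascending aorta, 1715 of 40565 kept barcodes met a rule meant for resident macrophages marked by Folr2 and Cd163. Kept barcodes had 200 or more genes and under 20% mitochondrial UMIs (unique molecular identifiers, each counting 1 captured RNA molecule). The cells were chosen by their measured UMIs: a barcode entered the set with at least 3 UMIs of C1qa and C1qb together and at least 4 UMIs of Folr2, Cd163, F13a1 and Lyve1 together, with Acta2 and Tagln under 0.3% of its UMIs and under 3 UMIs of the cell cycle genes Mki67 and Top2a. These cells are called 4-marker macrophages here, and the 2291 barcodes that met every condition except the 4-UMI minimum are called other C1q macrophages. The libraries came from wild-type male mice given BAPN (β-aminopropionitrile), which blocks lysyl oxidases and so the cross-linking of elastin and collagen, at 1 g/kg per day in drinking water for 4 weeks from 3 weeks of age. The AD_ABR group (2 libraries) also received paquinimod, a quinoline carboxamide that binds S100A9, at 10 mg/kg per day into the stomach, and the AD group (2 libraries) had the dissection model alone. Every group therefore carried BAPN, and no library from an untreated aorta was analysed here. The comparison asks what the 4-marker macrophages expressed under paquinimod in the BAPN aorta. The labels do not say whether the 2 libraries of a group came from separate mice, so p-values measure only the spread between these libraries, which may be technical.

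Resident macrophages of the arterial wall sit mainly in the adventitia, take up debris and hyaluronan, and persist by local division as well as by replacement from blood monocytes. FOLR2 is a folate receptor, CD163 takes up haemoglobin bound to haptoglobin, LYVE1 binds hyaluronan, MRC1 (CD206) is the macrophage mannose receptor, and F13a1 encodes the A subunit of coagulation factor XIII. Folr2, Cd163, Lyve1 and Mrc1 mark resident macrophages in many mouse tissues, whereas F13a1 is also transcribed by Ly6c-high monocytes and by cells that have recently left the blood.

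The AD_ABR libraries gave 289 and 655 4-marker macrophages and the AD libraries 399 and 372. The median cell held 7018 and 6423 UMIs in AD_ABR, against 7216 and 6120.5 in AD, so that depth per cell was alike. Summed over these cells, the libraries held 2144961 and 4617940 UMIs in AD_ABR and 3267442 and 2627178 in AD. No 4-marker barcode was shared between libraries, although pairs of libraries shared 18 to 36 kept barcodes. The ribosomal RNA sequence Rn18s-rs5 accounted in 4-marker macrophages for 3.27 and 2.05% of UMIs in AD_ABR and 6.12 and 5.47% in AD; its part in the results was not tested.

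The name of the cells held for AD_ABR but not for most cells of AD. In AD_ABR the UMIs that passed the rule were spread over the 4 markers, and F13a1 supplied 44.0 and 41.5% of them, whereas in AD F13a1 supplied 75.8 and 57.4%. The median cell held 26 and 25 marker UMIs in AD_ABR, against 7 and 10 in AD. At least 4 UMIs of Folr2, Cd163 and Lyve1, counted without F13a1, were present in 81.0 and 82.9% of the 4-marker macrophages of AD_ABR (234 and 543 cells) and in 19.3 and 45.4% of those of AD (77 and 169 cells). No UMI of these 3 genes was found in 3.81 and 4.58% of the cells of AD_ABR and in 44.1 and 28.5% of the cells of AD. These values are a description, since the rule used the markers. The cells with at least 4 UMIs of Folr2, Cd163 and Lyve1 are called the 3-marker subset below, and the other 692 cells the F13a1-led subset; this split was made after the values were seen.

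**Figure D1:**
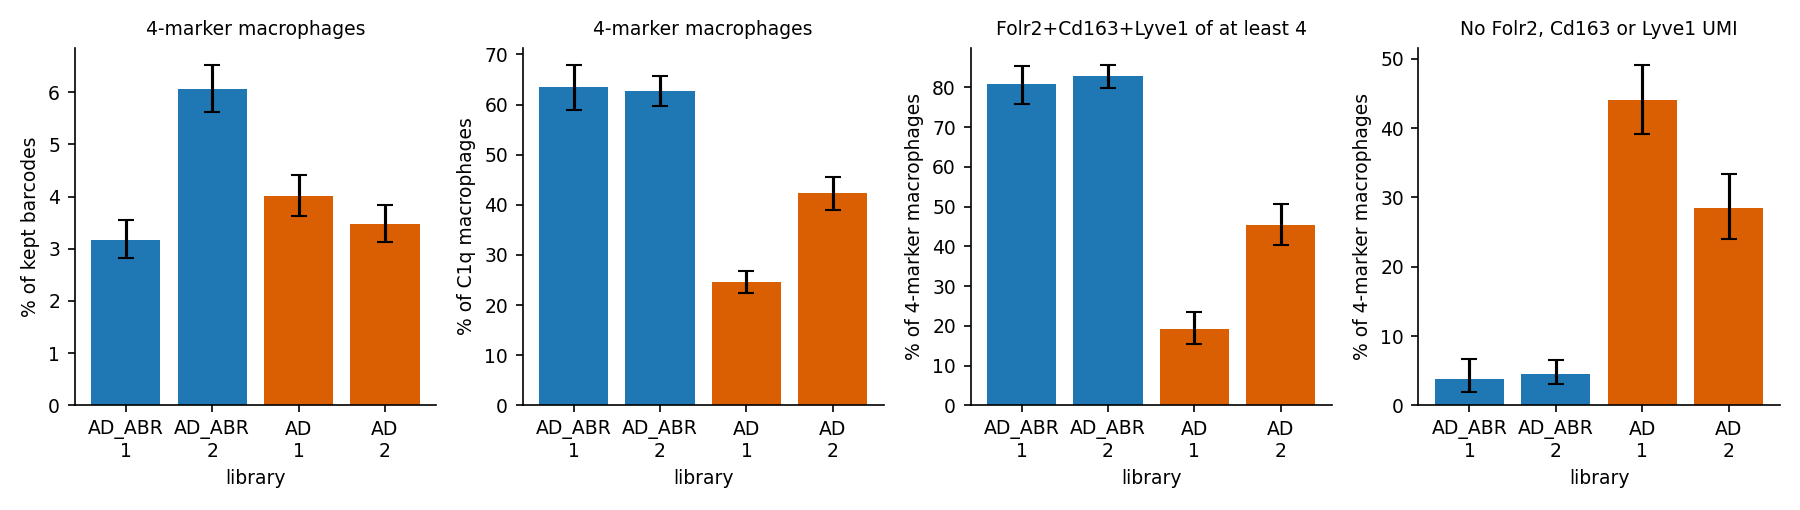
Shares in percent for each library, AD_ABR left of AD, with exact 95% Clopper-Pearson intervals that cover counting error only. From left to right, 4-marker macrophages among kept barcodes, the same among C1q macrophages, 4-marker macrophages with at least 4 UMIs of Folr2, Cd163 and Lyve1, and those with no UMI of these 3 genes. The third share is 81.0 and 82.9% in AD_ABR and 19.3 and 45.4% in AD.

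At the edge of the rule the cells of the 2 groups also differed. At 4 marker UMIs, the lowest score inside, were 10 and 28 cells in AD_ABR and 68 and 49 cells in AD. At 3, just outside, were 9 and 37 cells in AD_ABR and 64 and 44 in AD. Pooled per group, the AD_ABR cells at 4 held 688 CPM (the depth-scaled UMI count of the summed cells) of Mrc1 and 7.91 CPM of Arg1, and those at 3 held 400 and 2.63 CPM. The AD cells at 4 held 631 CPM of Mrc1 and 573 CPM of Arg1, and those at 3 held 539 and 492 CPM. Arg1, the arginase of alternatively activated and recruited macrophages, thus ran across the threshold of the pooled AD cells with little step. The AD libraries were not read apart at this edge. Over all 4-marker macrophages of AD_ABR Arg1 had only 21 and 10 UMIs, so its AD_ABR value at 4 rests on few UMIs.

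To compare cells at equal depth, each barcode was thinned to 2000 UMIs, which left 281 and 639 4-marker macrophages of AD_ABR and 393 and 364 of AD. Arg1 was then detected in 1.07 and 0.31% of 4-marker macrophages in AD_ABR and in 48.9 and 15.9% in AD, and without thinning in 2.08 and 1.53% and in 62.7 and 26.6%. Spp1, which encodes osteopontin, was detected after thinning in 2.85 and 2.66% of the cells in AD_ABR and in 70.5 and 38.2% in AD, and without thinning in 4.50 and 6.26% and in 82.2 and 52.2%. Ccr2, the monocyte receptor for CCL2, was detected after thinning in 10.3 and 9.39% in AD_ABR and in 44.3 and 16.2% in AD, and without thinning in 19.0 and 16.2% and in 65.7 and 33.1%. Smooth muscle barcodes (Acta2 and Tagln at 2% of UMIs or more) were used as a measure of free RNA. Whether smooth muscle cells transcribed Spp1 themselves was not tested, so its share there may not be free RNA alone. The median depth of these barcodes was 10918 and 9789 UMIs in AD_ABR and 8510 and 8372 in AD. After thinning, Arg1 was found in 0.11 and 0.033% of them in AD_ABR and in 0.40 and 0.11% in AD, Spp1 in 0.19 and 0.20% in AD_ABR and in 6.22 and 3.20% in AD, and Ccr2 in 0.055 and 0.13% in AD_ABR and in 0.40 and 0.22% in AD. In the AD libraries the shares in 4-marker macrophages were above those in smooth muscle barcodes for all 3 genes. The Arg1 cells were therefore a part of the 4-marker macrophages of AD. In the F13a1-led subset Arg1 stood at 9.78 and 6.31 CPM in AD_ABR and at 1065 and 520 CPM in AD. In the 3-marker subset it stood at 9.79 and 1.31 CPM in AD_ABR and at 382 and 10.2 CPM in AD, and after thinning it was detected there in 0.43 and 0% of cells in AD_ABR and in 25.0 and 2.41% in AD (without thinning, 0.85 and 0.92% and 42.9 and 5.92%). Spp1 stood in the 3-marker subset at 453 and 30.3 CPM in AD_ABR and at 1380 and 284 CPM in AD. It was detected there after thinning in 2.17 and 2.06% of cells in AD_ABR and in 51.3 and 13.3% in AD. The 453 CPM of AD_ABR library 1 came from only 8 of its 234 cells. AD library 1 thus held Arg1 cells in both subsets. Ccr2 stood in the F13a1-led subset at 376 and 223 CPM in AD_ABR and at 422 and 179 CPM in AD, so that the groups overlapped. In the 3-marker subset Ccr2 stood at 87.0 and 58.8 CPM in AD_ABR and at 269 and 96.7 CPM in AD.

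**Figure D2:**
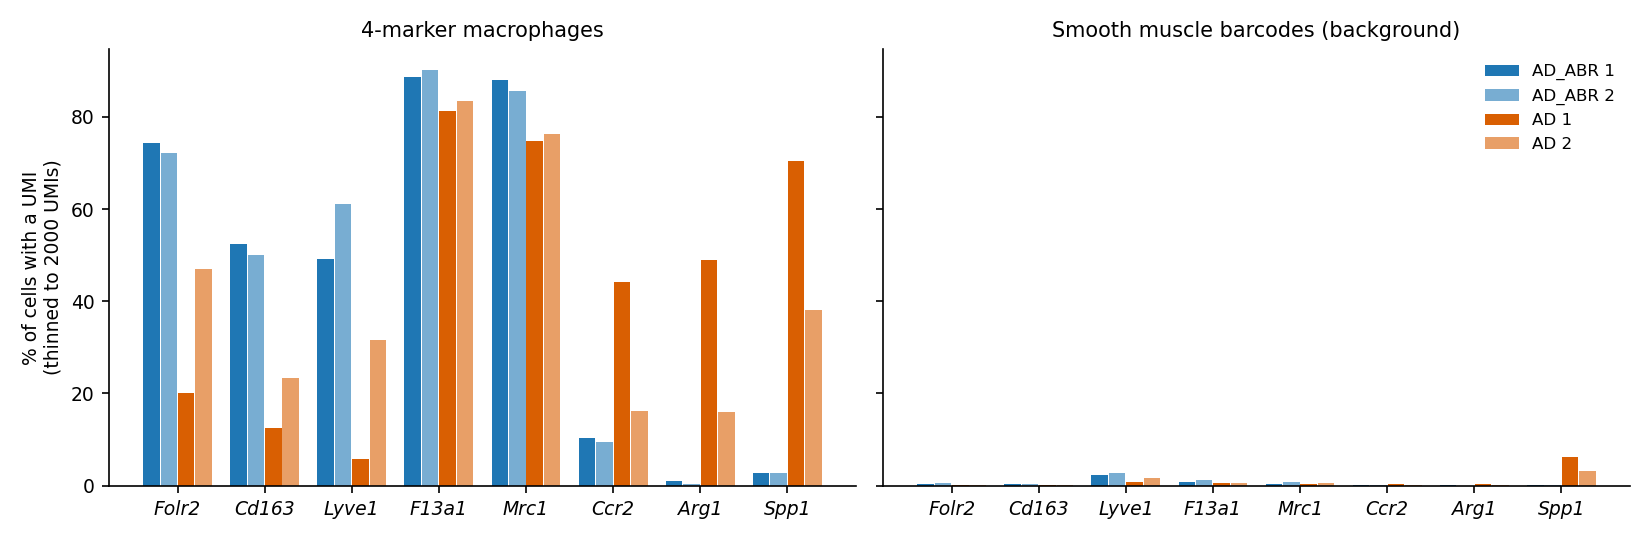
Percent of cells with at least 1 UMI of each gene after thinning to 2000 UMIs, for 4-marker macrophages (left) and for smooth muscle barcodes (right), by library. F13a1 and Mrc1 are present in most 4-marker macrophages of every library, Folr2, Cd163 and Lyve1 are more frequent in AD_ABR, and Ccr2, Arg1 and Spp1 are more frequent in AD.

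Mrc1 was a marker that the rule did not use. It marks the same kind of cell as Folr2, Cd163 and Lyve1, which split the sets, so its levels across the sets are a description. It stood at 1653 and 1419 CPM in the 4-marker macrophages of AD_ABR and at 1105 and 1044 CPM in those of AD (log2 fold change 0.50, SE 0.15, edgeR adjusted p = 0.0539). In the 3-marker subset it stood at 1797 and 1540 CPM in AD_ABR and at 1854 and 1575 CPM in AD, and the libraries of the groups overlapped. In the other C1q macrophages it stood at 267 and 196 CPM in AD_ABR and at 310 and 317 CPM in AD. The F13a1-led subset lay between them, with 1039 and 837 CPM in AD_ABR and 894 and 676 CPM in AD. Timd4, a phosphatidylserine receptor of long-lived resident macrophages, was detected without thinning in 36.8 and 34.3% of the 3-marker subset in AD_ABR and in 6.49 and 23.1% in AD, but in at most 1.82% of the F13a1-led subset of any library and at most 0.26% of the smooth muscle barcodes of any library.

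Among all kept barcodes the share of 4-marker macrophages overlapped between the groups, with 3.17 and 6.06% in AD_ABR and 4.01 and 3.48% in AD (exact two-sided permutation p = 1.00; 2 libraries against 2 cannot go below 0.333). Among C1q macrophages their share was 63.5 and 62.7% in AD_ABR and 24.5 and 42.3% in AD, a difference of 29.7 percentage points of the means (exact permutation p = 0.333). The other C1q macrophages made up 1.82 and 3.61% of kept barcodes in AD_ABR and 12.3 and 4.75% in AD. The 3-marker subset made up 2.57 and 5.03% of kept barcodes in AD_ABR and 0.774 and 1.58% in AD. This is a description, since that subset was split off after its markers were seen to differ between the groups. With membership decided on thinned counts, 4-marker macrophages made up 2.42 and 4.68% of barcodes in AD_ABR and 1.33 and 1.89% in AD. Without AD_ABR library 2 the difference of the 4-marker share among kept barcodes turned to −0.574 percentage points, against 0.871 over all 4 libraries. Of the 4-marker macrophages, 5.54 and 8.55% in AD_ABR and 8.02 and 5.65% in AD were among the barcodes with the highest doublet scores, at the rate of doublets expected for their library.

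Beside the genes of the rule, the 4-marker macrophages were set against the other C1q macrophages by the ratio of their levels, with the 15 highest and the 10 lowest ratios named by rule. This is a description without a test, since the rule split the cells. Higher in 4-marker macrophages in all 4 libraries were Ccl24, a chemokine for eosinophils, at 202 and 300 CPM in AD_ABR and 102 and 76.5 CPM in AD, where other C1q macrophages held 16.1 and 4.02 CPM in AD_ABR and 7.31 and 6.07 CPM in AD. Also among the 15 with the highest ratio were Ccl8, the carbonyl reductase gene Cbr2, the endothelin receptor gene Ednrb, the lectin gene Cd209f, the ficolin gene Fcna, the leukotriene C4 synthase gene Ltc4s and Pf4. Fcna was carried by the 3-marker subset, with 98.5 and 109 CPM in AD_ABR and 98.6 and 165 CPM in AD, whereas the F13a1-led subset held 4.89 and 6.31 CPM in AD_ABR and 5.89 and 8.38 CPM in AD. Retnla varied most between libraries, with 263 and 845 CPM in AD_ABR and 1.22 and 57.1 CPM in AD. Lower in 4-marker macrophages were Mmp12, which encodes macrophage elastase, Cd72, Il7r and Il1b; Il1b held 175 and 81.6 CPM in AD_ABR and 260 and 324 CPM in AD, against 956 and 735 CPM and 416 and 990 CPM in the other C1q macrophages.

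Over all 4-marker macrophages, paquinimod libraries differed from AD in 1263 of 10885 genes tested (11.6%), of which 580 were higher and 683 lower in AD_ABR (edgeR quasi-likelihood test on UMIs summed per library, Benjamini-Hochberg adjusted p under 0.05). Of the 1263 genes, 410 had a mean level in these cells below that of the whole libraries, as had 5760 of the 10885 tested, and such genes can be moved by free RNA of other cells. Without AD_ABR library 2 the number was 332. The make-up of the set also differed between the groups, and its part in these calls was not tested. Within the F13a1-led subset 831 of 8550 genes passed (9.72%), 4.99% higher and 4.73% lower. Within the 3-marker subset 23 of 9063 passed (0.254%), 6 higher (0.0662%) and 17 lower (0.188%), with 1388 at an unadjusted p under 0.05. The 3-marker subset rested on 77 and 169 cells in AD, and the F13a1-led subset on 55 and 112 cells in AD_ABR. Why the subsets differed in their number of calls was not tested. In the other C1q macrophages 57 of 11188 genes passed (0.509%), 0.331% higher and 0.179% lower.

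**Figure D3:**
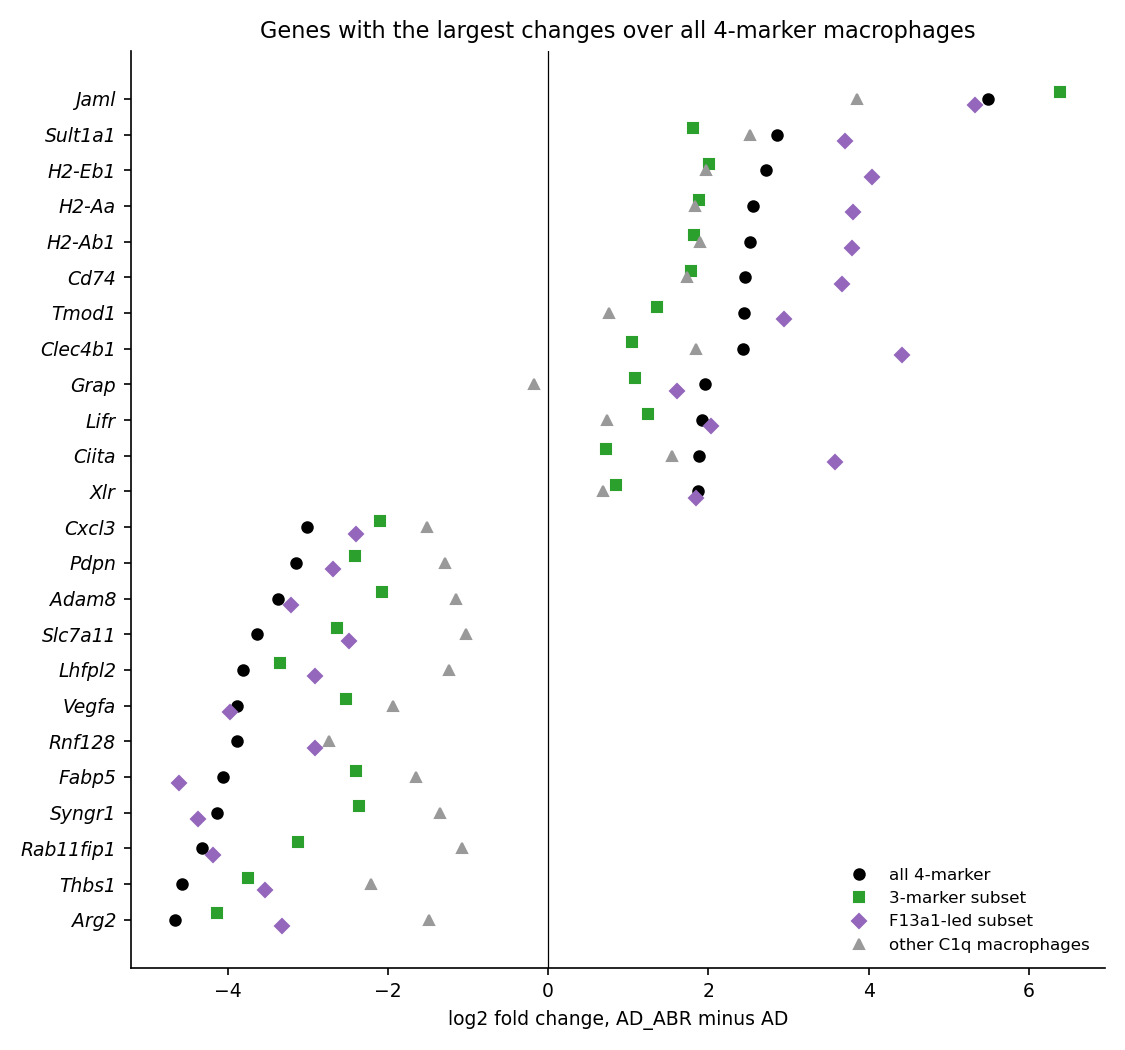
Log2 fold change, AD_ABR minus AD, of the 12 genes with the largest rise and the 12 with the largest fall over all 4-marker macrophages (black), in the 3-marker subset (green), the F13a1-led subset (purple) and the other C1q macrophages (grey). The subsets are parts of the same cells, and each rise and each fall has the same sign in both; Rnf128 was not tested in the 3-marker subset, and Grap has the opposite sign in the other C1q macrophages.

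Jaml showed the largest rise. It encodes a junctional adhesion molecule of leukocytes that binds the coxsackie and adenovirus receptor on epithelium. It stood at 218 and 260 CPM in AD_ABR, against 6.43 and 3.81 CPM in AD (log2 fold change 5.49, SE 0.24, edgeR adjusted p = 5.29e-06). The groups were far apart, and the rise was present in both subsets: 213 and 259 CPM in AD_ABR and 1.39 and 3.72 CPM in AD in the 3-marker subset (log2 fold change 6.39, edgeR adjusted p = 0.000359), and 237 and 269 CPM in AD_ABR and 7.85 and 3.87 CPM in AD in the F13a1-led subset. After thinning, 34.5 and 32.2% of 4-marker macrophages had a Jaml UMI in AD_ABR and 1.02 and 0.27% in AD, and without thinning 53.6 and 58.3% had one in AD_ABR and 3.51 and 2.15% in AD. Of smooth muscle barcodes, 0.055 and 0.37% had one after thinning in AD_ABR and 0.13 and 0.056% in AD. The gene lies at chromosome 9, 45079183 to 45108534 (GRCm38). In the other C1q macrophages Jaml also rose, with 104 and 114 CPM in AD_ABR and 7.89 and 6.65 CPM in AD, and its rise was larger in the 4-marker macrophages (difference of log2 fold changes 1.62, edgeR adjusted p = 0.0228).

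Sult1a1, a phenol sulfotransferase gene, stood at 158 and 198 CPM in AD_ABR and 15.6 and 33.9 CPM in AD (log2 fold change 2.86, SE 0.36, edgeR adjusted p = 0.0111; without AD_ABR library 2, adjusted p = 0.0542). Within the 3-marker subset it stood at 168 and 208 CPM in AD_ABR and 44.4 and 62.3 CPM in AD (log2 fold change 1.81, edgeR adjusted p = 0.0306). Lifr, the receptor for leukaemia inhibitory factor, stood at 246 and 225 CPM in AD_ABR and 52.3 and 70.4 CPM in AD (log2 fold change 1.93, SE 0.17, edgeR adjusted p = 0.000333), and rose within the 3-marker subset as well (1.25, adjusted p = 0.0422). Grap, an adaptor protein gene, stood at 49.9 and 69.7 CPM in AD_ABR and 11.3 and 19.8 CPM in AD (1.96, adjusted p = 0.00474), but its change within the 3-marker subset did not pass (1.09, adjusted p = 0.207). The remaining large rises, Tmod1, Clec4b1 and Xlr, had log2 fold changes of 2.44, 2.43 and 1.86, and none passed within the 3-marker subset. Tmod1 missed the threshold without either AD_ABR library (adjusted p = 0.199 and 0.222), Clec4b1 without either AD library (0.352 and 0.152) and Xlr without AD_ABR library 1 (0.0632).

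Genes of MHC class II presentation, by which macrophages show peptides to CD4 T cells, were higher in AD_ABR. Of the 12 genes of this list 9 were tested and 8 rose, and Cd80, a costimulatory ligand, fell; the median log2 fold change was 1.88, against 0.02 over all genes tested (5.33% of all genes tested rose). Class II chains are transcribed under the coactivator CIITA, which acts through factors bound to conserved promoter elements, one of them the Y box with a CCAAT core. H2-Aa, the α chain of I-A, stood at 3552 and 2738 CPM in AD_ABR and 361 and 699 CPM in AD (log2 fold change 2.55, SE 0.37, edgeR adjusted p = 0.0213). Both AD_ABR libraries lay well above both AD libraries. H2-Eb1, the β chain of I-E, stood at 3078 and 2544 CPM in AD_ABR and 263 and 584 CPM in AD (2.72, adjusted p = 0.0451). Ciita itself stood at 39.2 and 29.7 CPM in AD_ABR and 7.35 and 11.04 CPM in AD (1.88, SE 0.28, adjusted p = 0.00347). Cd74, the invariant chain, stood at 9212 and 7347 CPM in AD_ABR and 1050 and 1939 CPM in AD (2.45, adjusted p = 0.0144), and H2-Ab1 at 3120 and 2532 CPM in AD_ABR and 333 and 644 CPM in AD (2.52, adjusted p = 0.0186). H2-DMa and H2-DMb1, whose products load peptides, rose by 1.57 and 1.86 on the log2 scale, and the costimulatory ligand Cd86 by 1.21.

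The class II genes were also read within the subsets, and the difference between the subsets was not tested. The F13a1-led subset held 55 and 112 cells in AD_ABR and 322 and 203 in AD, and the Arg1 levels of its groups, given above, were far apart. H2-Aa stood at 6746 and 5741 CPM in AD_ABR and 338 and 558 CPM in AD in the F13a1-led subset. In the 3-marker subset it stood at 2799 and 2116 CPM in AD_ABR and 442 and 903 CPM in AD (1.88, edgeR adjusted p = 0.154). In the 3-marker subset none of the 9 genes passed, with a median of 1.36. In the other C1q macrophages 6 of the genes rose, with a median of 1.73, and H2-Aa there stood at 6623 and 5718 CPM in AD_ABR and 1899 and 1510 CPM in AD. For none of the 9 did the change differ between 4-marker and other C1q macrophages past the test (H2-Aa, difference 0.77, adjusted p = 0.658). Over all 4-marker macrophages 3 of 9 class II genes rose with at least 6 marker UMIs (median 1.91) and 4 of 9 with membership on thinned counts (median 1.39). Without AD_ABR library 1 the number of class II genes that rose was 5, and without AD_ABR library 2 it was 6; H2-Aa then had adjusted p = 0.0523 without library 1, and H2-Ab1 missed the threshold without either of them (0.0518 and 0.0514), as did H2-Eb1 (0.204 and 0.139).

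The promoters of H2-Aa and H2-Eb1 are shown because both genes rose and class II genes are known to be transcribed through shared promoter elements. RefSeq sequences on GRCm38.p6, taken from 250 bases before to 50 bases after each start site, were at hand for 8 of the 12 list genes, and the last 120 bases before the start site are printed for H2-Aa and H2-Eb1, 5′ to 3′ on the gene's strand. Capitals mark GATTGG or its reverse complement CCAATC, the core of the Y box.
H2-Aa (chr17:34287824-34287943, minus strand): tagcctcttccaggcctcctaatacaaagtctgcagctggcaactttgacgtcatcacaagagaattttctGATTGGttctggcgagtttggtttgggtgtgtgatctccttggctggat
H2-Eb1 (chr17:34305747-34305866, plus strand): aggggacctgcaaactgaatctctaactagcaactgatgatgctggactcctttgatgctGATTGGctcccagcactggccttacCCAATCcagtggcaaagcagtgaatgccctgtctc
The H2-Aa window held the core 49 bases before the start site, and the printed stretch of H2-Eb1 held it on both strands. Searched on both strands, the core was in the window of 7 of the 8 class II genes, against 18.2% of the 27025 gene symbols with a window. Of these 7 genes H2-Aa, H2-Eb1, H2-DMa and H2-DMb1 rose and the other 3 were not tested. The gene without the core was Cd80. Cd74, Cd86, Ciita and H2-Ab1, which rose, had no window and were not searched. The list was made of class II genes, known to share such elements, so this share describes the list. A match describes the letters of a window and shows no binding, and a part of the Y box in the rises was not tested.

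Glycolysis and hypoxia genes were lower in AD_ABR. Of 21 tested, 14 fell and none rose, with a median of −0.98, against 0.02 over all genes (6.27% of all genes tested fell). Vegfa, the growth factor for endothelium that hypoxia induces, stood at 8.86 and 9.31 CPM in AD_ABR and 159 and 107 CPM in AD (log2 fold change −3.88, SE 0.25, edgeR adjusted p = 8.22e-05). Hif1a, the oxygen-sensitive subunit of the hypoxia factor, stood at 81.6 and 66.7 CPM in AD_ABR and 507 and 336 CPM in AD (−2.54, adjusted p = 0.000965). The pyruvate kinase gene Pkm stood at 191 and 176 CPM in AD_ABR and 605 and 509 CPM in AD (−1.62, adjusted p = 0.000412), and the phosphoglycerate mutase gene Pgam1 at 100 and 95.3 CPM in AD_ABR and 356 and 245 CPM in AD (−1.64, adjusted p = 0.00165). Within the 3-marker subset none of the 21 genes passed, with a median of −0.42: Vegfa stood at 7.49 and 9.41 CPM in AD_ABR and 91.6 and 16.7 CPM in AD (−2.53, adjusted p = 0.286), and Hif1a at 72.0 and 62.2 CPM in AD_ABR and 358 and 140 CPM in AD (−1.85, adjusted p = 0.207). In the F13a1-led subset Vegfa stood at 14.7 and 8.84 CPM in AD_ABR and 178 and 170 CPM in AD. Without AD_ABR library 2, 5 of the genes fell.

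Promoters of Slc2a1, the glucose transporter GLUT1, and Ldha, lactate dehydrogenase A, are shown as textbook targets of the hypoxia factor; both genes were chosen after their values were seen. Slc2a1 stood at 10.7 and 6.496 CPM in AD_ABR and 79.0 and 41.9 CPM in AD (−2.93, edgeR adjusted p = 0.0105), and Ldha at 149 and 155 CPM in AD_ABR and 339 and 231 CPM in AD (−0.92, adjusted p = 0.0152). Capitals mark ACGTG or its reverse complement CACGT, the core of the hypoxia response element; the neighbouring matches in Ldha overlap to form CACGTG.
Slc2a1 (chr4:119108625-119108744, plus strand): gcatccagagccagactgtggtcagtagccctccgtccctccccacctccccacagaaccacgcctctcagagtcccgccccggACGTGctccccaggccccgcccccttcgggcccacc
Ldha (chr7:46845684-46845803, plus strand): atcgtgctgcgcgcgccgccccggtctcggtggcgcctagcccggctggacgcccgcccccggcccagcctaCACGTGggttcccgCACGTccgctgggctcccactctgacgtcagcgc
Searched on both strands, the core was in a window of 15 of the 22 list genes with a window, against 21.8% of all gene symbols with a window, and a second Ldha window had none in its last 120 bases before the start site. The list was made of glycolysis and hypoxia genes, so this share describes the list. A match shows no binding, and a part of the hypoxia factor in the falls was not tested.

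**Figure D4:**
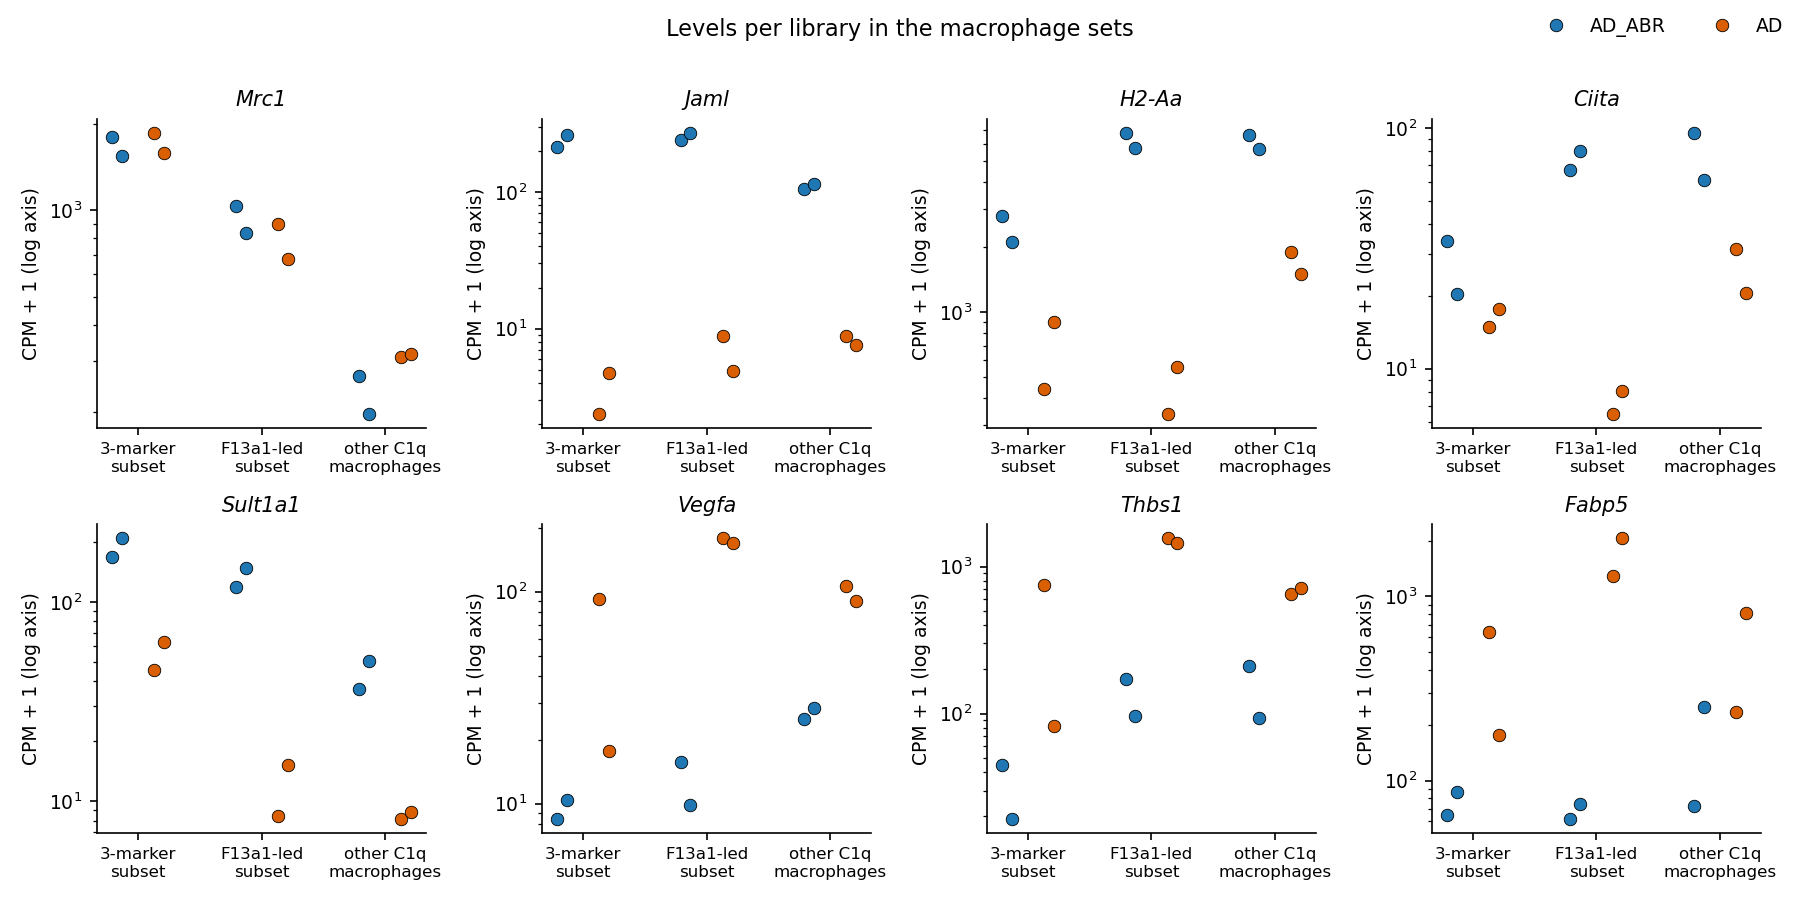
CPM plus 1 on a log axis in each library, AD_ABR (blue) left of AD (orange), in the 3-marker subset, the F13a1-led subset and the other C1q macrophages. Jaml, H2-Aa and Sult1a1 are higher in both AD_ABR libraries in all 3 sets; Mrc1 overlaps in the 3-marker subset, and for Vegfa, Thbs1 and Fabp5 the AD libraries of that subset lie far apart.

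The 12 largest falls included a matrix glycoprotein, an arginase and a cystine transporter. Thbs1, which encodes thrombospondin 1, stood at 68.1 and 31.6 CPM in AD_ABR and 1382 and 887 CPM in AD (log2 fold change −4.57, SE 0.53, edgeR adjusted p = 0.0211). Its call was lost without either AD library (adjusted p = 0.272 and 0.150). Within the 3-marker subset Thbs1 stood at 43.8 and 18.3 CPM in AD_ABR and 744 and 81.8 CPM in AD (−3.75, adjusted p = 0.404), so that AD library 1 was high and AD library 2 was nearer to AD_ABR. Arg2, the mitochondrial arginase, stood at 2.80 and 1.30 CPM in AD_ABR and 48.4 and 43.4 CPM in AD (−4.66, adjusted p = 8.31e-05). Arg1 itself stood at 9.79 and 2.17 CPM in AD_ABR and 914 and 311 CPM in AD and did not pass (−6.97, SE 1.21, adjusted p = 0.0848). Of 17 tested monocyte and recruited macrophage genes 4 fell (6.27% of all genes tested did) and 1, Ms4a4c, rose, which is near the 5.33% of all genes, with a median of −2.13; 2 fell without AD library 1, 7 without AD library 2 and 7 without AD_ABR library 1. Ms4a4c missed the threshold without either AD library (0.0543 and 0.0680). Syngr1, Lhfpl2, Rnf128 and Rab11fip1, a regulator of recycling endosomes, fell by 3.81 to 4.32 on the log2 scale, and Slc7a11, the cystine transporter, had a log2 fold change of −3.64 (adjusted p = 0.000412). Pdpn (podoplanin) fell by 3.15 and the neutrophil chemokine gene Cxcl3 by 3.01; both missed the threshold without either AD_ABR library (Pdpn, adjusted p = 0.229 and 0.185; Cxcl3, 0.105 and 0.120).

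Lipid handling, lysosome and iron genes are read against the 6.27% of all genes tested that fell and the 5.33% that rose. Of 18 lipid handling and foam cell genes 7 fell and none rose (median −0.86; without AD_ABR library 2, 4 fell). Fabp5, a fatty acid carrier, stood at 63.4 and 83.4 CPM in AD_ABR and 1149 and 1293 CPM in AD (log2 fold change −4.06, SE 0.18, edgeR adjusted p = 5.29e-06), and within the 3-marker subset at 63.9 and 85.5 CPM in AD_ABR and 639 and 177 CPM in AD (−2.39, adjusted p = 0.256). Trem2, a lipid receptor of foam cells, stood at 222 and 221 CPM in AD_ABR and 544 and 440 CPM in AD (−1.17, adjusted p = 0.00234), while Apoe, Gpnmb, Lpl and Plin2 did not pass. Of 26 lysosomal genes 7 fell and 3 rose (median −0.14; without AD_ABR library 2, 3 fell and none rose, and without AD library 2, 11 fell). Ctsd, which encodes cathepsin D, stood at 766 and 760 CPM in AD_ABR and 4146 and 3642 CPM in AD (−2.37, adjusted p = 5.80e-05), and within the 3-marker subset at 786 and 749 CPM in AD_ABR and 3595 and 1401 CPM in AD (−1.67, adjusted p = 0.231). Of 15 iron and haem genes tested 4 rose and 4 fell (without AD_ABR library 2, 2 and 2). Hmox1, the haem oxygenase, stood at 898 and 693 CPM in AD_ABR and 2003 and 2777 CPM in AD (−1.60, adjusted p = 0.00269), and Trf, which encodes transferrin, at 1231 and 1156 CPM in AD_ABR and 486 and 645 CPM in AD (1.06, adjusted p = 0.00424). Of 22 sterol and fatty acid synthesis genes 5 fell, but 18 of the 22 lay below the level of the whole libraries (10 fell without AD library 2 and 1 without AD_ABR library 2).

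Of 26 NF-κB targets and feedback genes 12 fell and none rose, against 6.27% and 5.33% of all genes tested (median −0.60; without AD_ABR library 2, 2 fell). Tnfaip2 stood at 66.7 and 76.7 CPM in AD_ABR and 301 and 277 CPM in AD (−2.02, SE 0.15, edgeR adjusted p = 9.48e-05) and fell within the 3-marker subset too (−1.23, adjusted p = 0.0422). It was the only 1 of the 26 NF-κB genes to pass there, where 0.188% of all genes tested fell, and the list median was −0.47. Tnfaip3, the A20 ubiquitin-editing brake on NF-κB, stood at 248 and 182 CPM in AD_ABR and 475 and 434 CPM in AD (−1.11, adjusted p = 0.00464; without AD_ABR library 2, 0.0530). Of 26 chemokine and cytokine genes 3 rose and 5 fell (without AD_ABR library 2, 1 fell). Ccl2, which draws monocytes through CCR2, stood at 1761 and 1469 CPM in AD_ABR and 774 and 1019 CPM in AD (0.83, adjusted p = 0.0144), a rise that missed the threshold without either AD_ABR library (0.0797 and 0.0543). Il1a stood at 14.5 and 7.80 CPM in AD_ABR and 42.8 and 46.1 CPM in AD (−2.11, adjusted p = 0.00234). Within the 3-marker subset none of the 25 chemokine and cytokine genes tested passed (Ccl2 0.40, adjusted p = 0.442, and Il1a −0.51, adjusted p = 0.69). Of 20 matrix proteases and inhibitors 8 fell and none rose. Adam8, a leukocyte sheddase, stood at 14.5 and 17.1 CPM in AD_ABR and 174 and 155 CPM in AD (−3.38, adjusted p = 1.39e-05). Mmp14, a membrane collagenase, stood at 20.5 and 24.0 CPM in AD_ABR and 146 and 90.6 CPM in AD (−2.41, adjusted p = 0.00194). Within the 3-marker subset 1 of 18 tested fell, and Adam8 (−2.08, adjusted p = 0.286) and Mmp14 (−1.84, adjusted p = 0.279) did not pass.

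Of 29 tested resident macrophage genes that the rule did not use, 9 rose and none fell, against 5.33% and 6.27% of all genes tested, with a median of 0.76. With at least 6 marker UMIs 3 rose, and with membership on thinned counts 1 rose and 1 fell. The list marks the same kind of cell as Folr2, Cd163 and Lyve1, which the rule used, so its counts are a description. Within the 3-marker subset none passed and the median was 0.18 (Maf 0.53, edgeR adjusted p = 0.186, and Selenop 0.28, adjusted p = 0.397). Maf, a transcription factor of resident macrophages, stood at 1104 and 1085 CPM in AD_ABR and 555 and 648 CPM in AD (0.84, SE 0.14, edgeR adjusted p = 0.00647; without AD_ABR library 2, 0.0550). Ccl24 rose by 1.48 (adjusted p = 0.00805), and Selenop, a selenium carrier, stood at 3419 and 3494 CPM in AD_ABR and 1859 and 2280 CPM in AD (0.72, adjusted p = 0.0142; without either AD_ABR library, 0.0547 and 0.120). Without AD_ABR library 2, 1 gene of this list rose, and without AD library 2, 18 rose. Of the rule's own genes, Folr2 stood at 884 and 937 CPM in AD_ABR and 151 and 389 CPM in AD, Cd163 at 717 and 633 CPM and 102 and 209 CPM, Lyve1 at 682 and 1036 CPM and 73.5 and 317 CPM, and F13a1 at 1794 and 1847 CPM and 1023 and 1231 CPM. C1qa stood at 6608 and 6612 CPM in AD_ABR and 2364 and 3453 CPM in AD, and C1qb at 6022 and 6263 CPM and 2462 and 3495 CPM. Acta2 and Tagln stood at 381 and 321 CPM and 156 and 134 CPM in AD_ABR and at 97.3 and 268 CPM and 38.6 and 101 CPM in AD. Mki67 and Top2a were at most 19.0 CPM in every library. These 10 genes chose the cells, so their levels are a description; they stayed in the fit, where they account for 4 of the 580 higher and 1 of the 683 lower genes.

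Of 23 interferon genes 9 rose and none fell, against 5.33% and 6.27% of all genes tested, with a median of 0.80. With membership on thinned counts none of 22 passed the edgeR test and the median was −0.097. Bst2, which tethers virions, stood at 605 and 475 CPM in AD_ABR and 233 and 274 CPM in AD (1.07, SE 0.17, edgeR adjusted p = 0.00439), and Ifitm3, an inhibitor of viral entry, at 1946 and 1815 CPM in AD_ABR and 689 and 994 CPM in AD (1.14, adjusted p = 0.00536). Isg15, Ifit1, Ifit3, Irf7 and Mx1 did not pass. None of the 22 tested passed within the 3-marker subset, where the median was 0.29. Immediate early genes, which tissue dissociation also induces, rose in 4 of 20, and 3 of these 4 lay below the level of the whole libraries (without either AD_ABR library 1 rose, and without AD library 2, 3 rose and 4 fell). By DESeq2 over all 4-marker macrophages 3 immediate early genes rose and 2 fell. Within the 3-marker subset 2 of the 20 fell and none rose (median −0.035), where 0.188% of all genes tested fell. Glucocorticoid response genes rose in 4 and fell in 2 of 20, and scavenger receptors rose in 3 and fell in 1 of 20. Efferocytosis genes rose in 3 and fell in 4 of 16, and complement genes rose in 2 of 15. Unfolded protein response genes rose in 3 and fell in 1 of 18, S100 proteins and their receptors rose in 1 and fell in 2 of 15, growth factors fell in 2 of 17 and identity transcription factors rose in 2 and fell in 3 of 22. Against the 5.33% of all genes tested that rose and the 6.27% that fell, a count of 1 or 2 genes in such a list is near the background. These small counts moved with single libraries: without AD_ABR library 2, no unfolded protein response gene or identity transcription factor passed, and without AD library 2, 7 scavenger receptors and 7 glucocorticoid response genes rose. Of 23 oxidative phosphorylation genes none passed the edgeR test, and their median was −0.03.

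**Figure D5:**
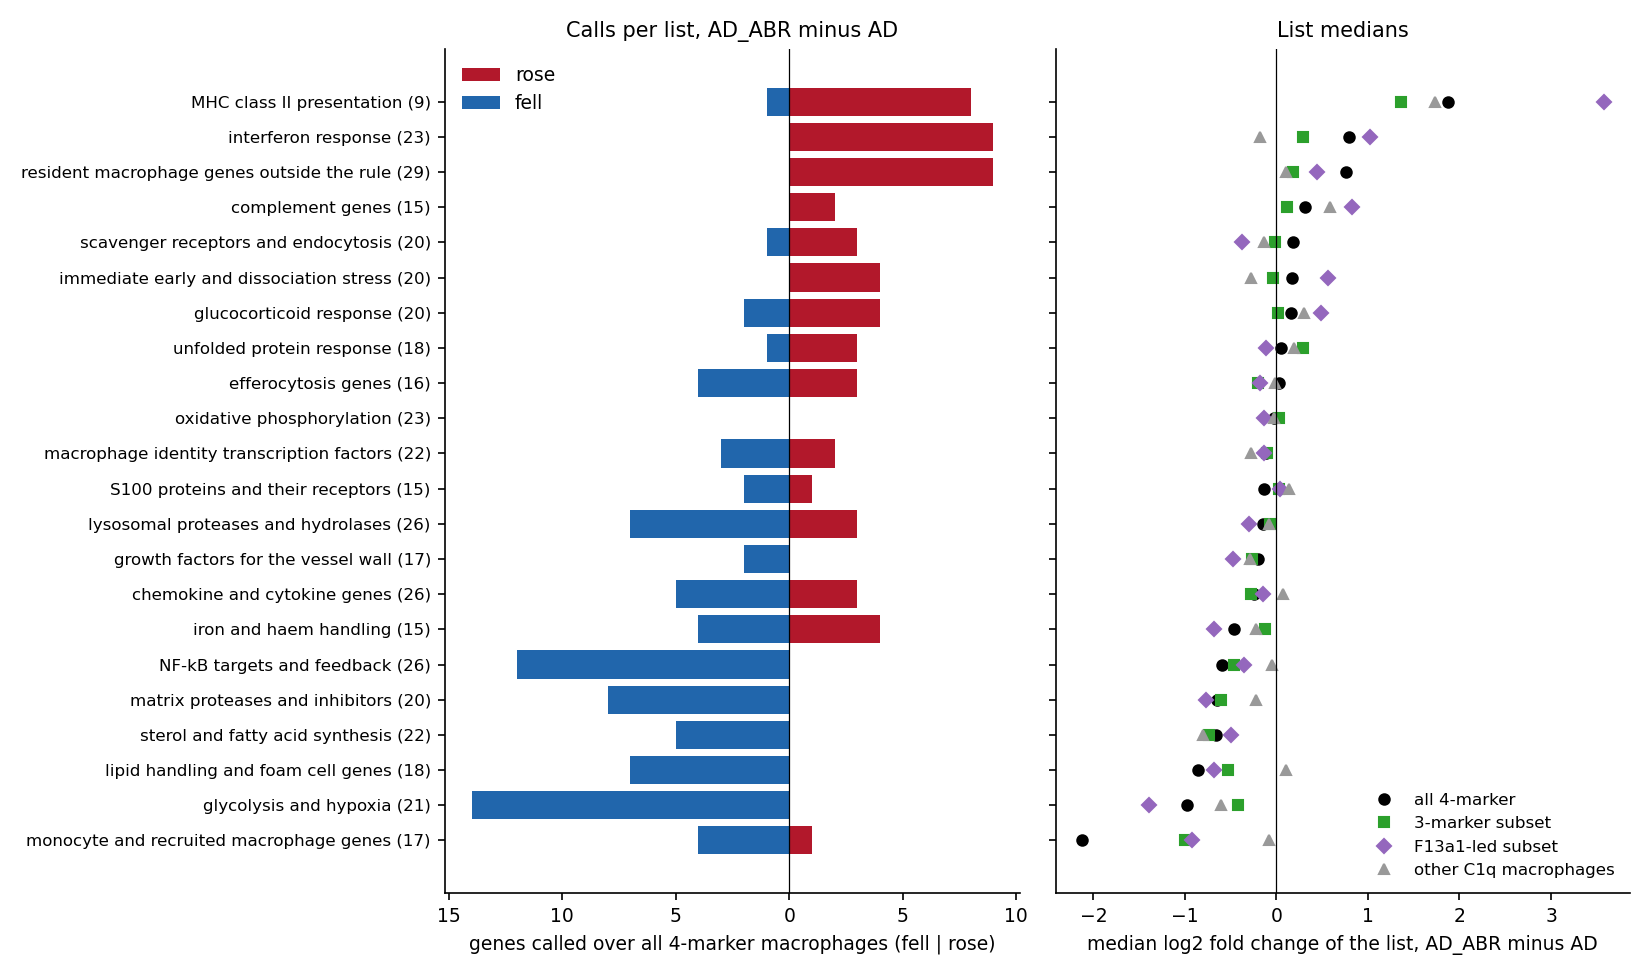
Left, genes called lower (blue) and higher (red) in AD_ABR over all 4-marker macrophages for each gene list, with the number tested in parentheses. Right, the list medians of the log2 fold change, AD_ABR minus AD, over all 4-marker macrophages, in the 3-marker subset, the F13a1-led subset and the other C1q macrophages; the class II medians are 1.88, 1.36, 3.58 and 1.73 and the glycolysis and hypoxia medians −0.98, −0.42, −1.39 and −0.60.

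The 23 genes that passed within the 3-marker subset were chosen for description after that subset was defined. The 6 that rose were Jaml, Sult1a1, Lifr, Gm4951, Ms4a6b and Ms4a6c, all of them at or above the level of the whole libraries. Ms4a6b, a tetraspanning membrane protein gene, stood at 831 and 869 CPM in AD_ABR and 247 and 355 CPM in AD within this subset (log2 fold change 1.51, edgeR adjusted p = 0.0415), and Ms4a6c at 1054 and 1094 CPM in AD_ABR and 490 and 504 CPM in AD (1.13, adjusted p = 0.0415). Ms4a6b and Ms4a6c are close paralogs in a gene cluster, and reads of one may have been given to the other. Of the 17 that fell, 8 lay below the whole-library level, among them S100a8, S100a9, Ccl21a, Prg4 and the heat shock genes Hspa1a, Hspa1b and Hsph1. Above it lay Acod1, which makes the antimicrobial metabolite itaconate, at 6.34 and 5.49 CPM in AD_ABR and 43.0 and 35.3 CPM in AD (−2.71, adjusted p = 0.0228). Hilpda, a hypoxia-induced lipid droplet protein gene, stood at 33.4 and 36.1 CPM in AD_ABR and 119 and 86.4 CPM in AD (−1.53, adjusted p = 0.0422), and Bcl2l11, the cell death gene that encodes BIM, at 58.2 and 49.4 CPM in AD_ABR and 219 and 138 CPM in AD (−1.70, adjusted p = 0.0422). Of the 23 genes 19 were also called in the same direction over all 4-marker macrophages.

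Whether 4-marker macrophages changed differently from other C1q macrophages was tested as a difference of the 2 log2 fold changes, with each library as a block. It passed for 108 of 11885 genes (0.909%), with 18 differences above 0 (0.151%) and 90 below 0 (0.757%). Ccl12, a monocyte chemokine gene, stood at 1451 and 554 CPM in the 4-marker macrophages of AD_ABR and 185 and 233 CPM in those of AD, and at 648 and 164 CPM in AD_ABR and 255 and 279 CPM in AD in the other C1q macrophages (difference 1.81, edgeR adjusted p = 0.00484). Taken alone, its change passed neither in 4-marker macrophages (2.24, edgeR adjusted p = 0.141) nor in the others (0.58, adjusted p = 0.810), and the AD_ABR libraries lay far apart. Pf4, platelet factor 4, which resident macrophages transcribe, stood at 4418 and 4747 CPM in AD_ABR and 4479 and 4084 CPM in AD in 4-marker macrophages, and at 583 and 670 CPM and 1114 and 1550 CPM in the others (1.17, adjusted p = 0.0179). Acp5, the tartrate-resistant acid phosphatase, differed most steeply among the named genes: it stood at 17.7 and 18.8 CPM in AD_ABR and 48.4 and 31.6 CPM in AD in 4-marker macrophages, and at 129 and 204 CPM and 35.0 and 42.5 CPM in the others (−3.28, adjusted p = 0.00330). Cytip likewise stood at 42.4 and 35.9 CPM in AD_ABR and 71.6 and 81.8 CPM in AD in 4-marker macrophages, and at 301 and 284 CPM and 146 and 194 CPM in the others (−1.78, adjusted p = 0.00330). With the 3-marker subset in place of all 4-marker macrophages, none of 11351 genes passed the edgeR test, with 674 at an unadjusted p under 0.05. Without AD library 1 the number was 64, without AD library 2 it was 764 and without AD_ABR library 2 it was 297.

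Apart from those of fibroblasts, markers of other cell types were low in the 4-marker macrophages, but some moved with the groups. The 11 neutrophil markers summed to 41.0 and 29.0 CPM in AD_ABR and 230 and 99.7 CPM in AD, with Ly6g at 0. S100a8 had 1 and 2 UMIs in the 4-marker macrophages of AD_ABR and 269 and 67 UMIs in those of AD, and S100a9 had 0 and 1 against 249 and 53. After thinning, S100a8 was found in 8.91 and 1.10% of 4-marker macrophages of AD and in 4.10 and 0.34% of the smooth muscle barcodes of AD, so that the high level of AD library 1 was shared by cells that should lack the gene. The 6 lymphatic endothelial markers summed to 20.5 and 19.5 CPM in AD_ABR and 225 and 119 CPM in AD. Pdpn, named above among the largest falls, supplied 14.0 and 14.9 CPM of this sum in AD_ABR and 173 and 80.7 CPM in AD. Ccl21a had no UMI in AD_ABR and 107 and 78 UMIs in AD. The 7 fibroblast markers summed to 3105 and 7357 CPM in AD_ABR and 3259 and 4640 CPM in AD, and all of them lay below the level of the whole libraries. T cell markers summed to at most 11.02 CPM, mast cell markers to at most 1.22 CPM and adipocyte markers to at most 3.25 CPM in any library, with Cd8a, Cpa3, Ms4a2, Adipoq and Plin1 at 0. The 5 platelet markers summed to 33.1 and 7.15 CPM in AD_ABR and 219 and 64.3 CPM in AD, and the 5 red cell markers to 5.59 and 1.73 CPM in AD_ABR and 21.7 and 3.05 CPM in AD. Blood endothelial markers summed to 27.0 and 26.9 CPM in AD_ABR and 51.1 and 52.9 CPM in AD. B cell markers summed to 162 and 126 CPM in AD_ABR and 85.1 and 107 CPM in AD. Schwann cell markers summed to 186 and 67.1 CPM in AD_ABR and 63.4 and 58.2 CPM in AD. Dendritic cell markers lay between 15.6 and 33.5 CPM over the 4 libraries, and smooth muscle markers outside the rule between 94.6 and 317 CPM. The part of these other cells in the changes above was not tested, other than by leaving out the cells with an S100a8 or S100a9 UMI, after which 899 genes passed over all 4-marker macrophages.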

How the data were processed

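Ascending aorta was profiled by 10x Genomics 3′ single-cell RNA sequencing in 4 libraries, grouped by the labels into AD_ABR and AD. The deposited values are whole-number UMI counts per gene and barcode with no scaling applied, per the file headers. The tools were STAR, Cell Ranger 6.0 and Seurat 4.0, with GRCm38, per the submitters' processing notes. Per the file headers, Cell Ranger 7.1.0 wrote the matrices. The authors' annotation and later filters are not stated. The libraries held 93575612 and 98946431 UMIs in AD_ABR and 76142840 and 99572011 in AD.

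UMI counts were summed per library over the chosen cells and tested with edgeR 4.0.16 in R 4.3.3 (TMM, filterByExpr, robust quasi-likelihood fit, 2 libraries against 2), adjusted over all genes tested. The standard error equals the absolute log2 fold change over the root of the F statistic. The code was tested on simulated data. Levels are CPM of the summed counts without TMM. Scrublet (scanpy 1.11.5) scored doublets, which were kept. The members, lists and tests were chosen with earlier results of these data known. Named genes are the 12 largest rises and falls past the test with a mean of at least 20 CPM, not below the whole-library mean and not overlapping between groups, the 5 most significant differences between cell sets in each direction, the 15 highest and 10 lowest against other C1q macrophages at a mean of at least 50 CPM (5 CPM added), and up to 4 genes per list; any other name is said to have been chosen after their values were seen, or stand for markers, list members that did not pass or rule genes. Some genes that the rule selects are not reported here. Coordinates are from GENCODE M21 on GRCm38.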

Additional observations from a re-analysis of the deposited data

Results flagged for a closer look

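The change under paquinimod differed between 4-marker and other C1q macrophages for 108 genes, by an edgeR interaction test with each library as a block. Values below are differences of the log2 fold change (AD_ABR minus AD), 4-marker minus other C1q macrophages, for genes named by the rule. None of them passed with the 3-marker subset in place of all 4-marker macrophages.

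Above 0 were Grap (2.22), Ccl12 (1.81), Jaml (1.62), Lifr (1.21), Pf4 (1.17), Trf (1.15), Mndal (1.01) and Mrc1 (0.97).

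Below 0 were Acp5 (−3.28), Rab11fip1 (−3.18), Arg2 (−3.15), Syngr1 (−2.87), Lhfpl2 (−2.62), Slc7a11 (−2.59), Thbs1 (−2.29), Adam8 (−2.25), Havcr2 (−2.23), Vegfa (−1.95), Tgm2 (−1.81), Cytip (−1.78), Traf1 (−1.36), Hif1a (−1.33), Soat1 (−1.13), Psap (−1.10), Id2 (−0.90) and Fth1 (−0.80).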

How the results depend on the processing

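Of the 1263 genes changed over all 4-marker macrophages, the number was 677 by DESeq2, 2071 with no filter on low counts, 636 with at least 6 marker UMIs and 146 with membership on thinned counts. In subsets chosen after seeing the data it was 23 with at least 4 UMIs of Folr2, Cd163 and Lyve1, 831 with fewer and 7 in cells with a Lyve1 UMI. Leaving out 1 library gave 332 to 1809, where the lone library of a group was assumed to vary like the other group. With the replicate block the number was 1842; the samples share only a number, since 2 pairs with a correlation of deviations of 0.141 do not pair them. The 108 differences from other C1q macrophages numbered 40 by DESeq2, 604 with no filter, 0 with at least 6 marker UMIs (1134 at an unadjusted p under 0.05 in edgeR), 206 with at least 2, 8 on thinned membership, 229 without high doublet scores, 0 in the 3-marker subset (674 unadjusted) and 64 to 764 leaving out 1 library. The difference in share among kept barcodes ran from −0.574 to 2.32 percentage points leaving out 1 library.

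Among single genes the log2 fold change turned over for Fabp5 in cells with a Lyve1 UMI (0.45), Mrc1 on thinned membership (−0.025) and in the 3-marker subset (−0.016), Pf4 in the F13a1-led subset (−1.17) and without a Lyve1 UMI (−0.86), Cytip in the F13a1-led subset (0.23), Acp5 in the 3-marker subset (0.17) and with a Lyve1 UMI (0.041), Ccl24 in the F13a1-led subset (−1.03) and without a Lyve1 UMI (−0.73) and Fcgrt with a Lyve1 UMI (−0.012). Pf4 ran from −0.015 to 0.15 leaving out 1 library. The causes were not tested. Counts of 77 and 169 cells in AD limit the 3-marker subset, and 55 and 112 cells in AD_ABR limit the F13a1-led subset.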
